A study of Mus musculus with 12 samples.

Results

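The genes described here are 9 targets of the peroxisome proliferator-activated receptors (PPARs) that respond to fatty acids: Angptl4, Pdk4, Ucp3, Slc25a20, Cpt1a, Cpt2, Acadvl, Acadm and Plin2. They were picked by symbol from the 19505 genes of an Affymetrix array, 1 probe set each, and all 9 were measured. Angptl4, Ucp3 and Slc25a20 were chosen for their insulin effects in these same arrays, so their values in contrasts that involve insulin are given as a description, without a test. The other 6 members were not chosen in that way.

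The tissue was adrenal medulla, dissected from 12 male mice of the C57Bl6 strain, and each animal had its own array. The 4 groups of 3 animals were germ-free mice given insulin, germ-free mice given saline, normally colonized mice given insulin and normally colonized mice given saline. Every animal had fasted for 3 h, received regular human insulin (2 IU/kg) or the same volume of saline into the peritoneum, and was killed 90 min later. The study set out to compare the response to insulin-induced low blood sugar between the colonization states. All levels are log2 intensities, so a difference of 1 is a doubling. With 3 arrays a group, precision is limited by that number throughout.

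PPARs are nuclear receptors that bind fatty acids and, paired with a retinoid X receptor, switch on genes for the release, transport, storage and burning of fat. PPAR-alpha is best known from the fasting liver, PPAR-gamma from fat and PPAR-delta from muscle. Insulin restrains the release of fatty acids from fat tissue, and several of these genes are known to fall with feeding and to be raised in fasting.

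The pieces of tissue held more than medulla, and this varied between arrays. Th, which makes the catecholamine precursor L-DOPA, lay at 13.04 to 13.91 in all 12 arrays. The mean level of 13 measured chromaffin cell markers (of 14 listed) was 9.71 to 10.22 in germ-free insulin arrays, 10.55 to 10.69 in germ-free saline arrays, 10.72 to 11.24 in colonized insulin arrays and 10.72 to 11.08 in colonized saline arrays. That of the adrenal cortex markers lay at 12.07 to 12.64 in all arrays. The mean level of 11 measured adipocyte markers (of 12 listed, among them Adipoq and Ucp1) was 10.18, 10.28 and 10.61 in germ-free insulin arrays, 9.61, 9.16 and 8.80 in germ-free saline arrays, 5.92, 6.51 and 8.45 in colonized insulin arrays and 6.35, 10.39 and 9.27 in colonized saline arrays. Colonized saline animal 1 and colonized insulin animals 4 and 5 therefore stood apart at low adipocyte levels. Hepatocyte markers ranged from 7.32 to 10.43 in germ-free arrays and from 6.03 to 11.17 in colonized arrays, intestinal markers were raised only in germ-free saline arrays (7.36 to 9.20, against 4.99 to 5.33 in the other 9 arrays), and skeletal and heart muscle markers stayed at 5.23 to 5.40 throughout. The negative control probe sets averaged 5.46 to 5.67 in germ-free arrays and 4.92 to 5.04 in colonized arrays, without overlap, and array processing and colonization state cannot be told apart. In pieces of tissue, fewer cells of a type and less RNA per cell cannot be told apart either.

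The PPAR partner pair binds a direct repeat of AGGTCA with 1 base between the copies, and promoters were searched for it because all 9 genes were grouped as PPAR targets. RefSeq promoter sequence (GRCm38.p6, the 250 bases before the start in each promoter entry) was held for 8 of the 9 members. That start is not always the outer end of the gene. The Cpt1a window (chr19:3323111-3323210) lies inside the gene, which begins at 3322326, and the Plin2 window overlaps the end of its gene at 86670217. The letters AGGTCA, on either strand, occurred in 5 of the 8 (Ucp3, Plin2, Acadm, Acadvl and Cpt1a), against 13.8% of 27018 promoters of the same length. The full repeat, AGGTCA, any base and AGGTCA again, occurred with at most 2 mismatches in Ucp3 and Plin2, against 3.18% of promoters, and with at most 3 in Acadm as well, against 21.0%. The 2 searches overlap, since the longer motif contains the shorter one. The windows of 100 bases that hold these closest matches are printed below in the direction of the gene, with the match in capitals. The Ucp3 window is chr7:100472891-100472990 (plus strand), the Plin2 window is chr4:86670210-86670309 (minus strand) and the Acadm window is chr3:153944794-153944893 (minus strand). The Plin2 and Acadm matches lie on the opposite strand to the gene, so they read as the reverse complement of the motif.
Ucp3: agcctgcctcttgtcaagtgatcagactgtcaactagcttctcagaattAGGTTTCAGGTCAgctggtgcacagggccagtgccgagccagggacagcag
Plin2: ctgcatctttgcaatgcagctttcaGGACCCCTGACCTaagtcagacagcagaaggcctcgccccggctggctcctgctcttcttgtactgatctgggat
Acadm: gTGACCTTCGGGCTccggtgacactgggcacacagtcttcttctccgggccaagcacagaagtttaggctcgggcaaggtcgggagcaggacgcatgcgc
These matches are descriptions of letters, not of bound sites. Ucp3 and Acadm both averaged lowest in colonized insulin arrays (6.16 and 9.94), and Plin2 in germ-free saline arrays (10.35). No contrast of Plin2 or Acadm passed the test in the main fit, and the insulin contrasts of Ucp3 were not tested.

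Angptl4 codes for a secreted protein that inhibits lipoprotein lipase and so limits the uptake of fat from blood. Its level was 9.02, 8.87 and 8.88 in germ-free insulin arrays and 9.40, 9.32 and 9.32 in germ-free saline arrays. It was 8.42, 8.65 and 9.28 in colonized insulin arrays and 10.11, 10.43 and 10.04 in colonized saline arrays. Insulin and saline arrays did not overlap in either state, with insulin lower in both. The difference was -0.42 ± 0.19 (SE of the fit) in germ-free mice and -1.41 ± 0.19 in colonized mice, where the level was 2.65-fold lower. The effects differed by 0.98 ± 0.26 between the states. Germ-free saline arrays lay below colonized saline arrays, without overlap (-0.84 ± 0.19), and after insulin the states overlapped (0.14 ± 0.19).

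Pdk4 codes for a kinase that inactivates the pyruvate dehydrogenase complex and thereby spares glucose when fat is burned. It was 9.42, 9.00 and 8.92 in germ-free insulin arrays and 9.30, 8.39 and 8.39 in germ-free saline arrays. In colonized mice it was 6.82, 7.01 and 7.53 after insulin and 7.42, 10.10 and 9.52 after saline. The colonized saline arrays thus spread widely (SD 1.41, n = 3), and animal 1 of that group lay within the colonized insulin range. Colonized insulin animals 4 and 5 lay below the 95th percentile of the negative controls of their arrays (7.38 and 7.48). The insulin effect was 0.42 ± 0.53 in germ-free mice and -1.89 ± 0.53 in colonized mice (adjusted p = 0.947 and 0.224 from limma, adjusted over all 19572 probe sets). The difference of the effects was 2.31 ± 0.75 (adjusted p = 0.344). Without colonized saline animal 1 the colonized effect was -2.68 (adjusted p = 0.0133). That animal had the lowest adipocyte level of its group (6.35). Without it the adipocyte levels of colonized saline arrays (9.27 and 10.39) and colonized insulin arrays (5.92 to 8.45) no longer overlapped. With the adipocyte level as a covariate over all arrays the colonized effect was -0.92 (adjusted p = 0.358).

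Ucp3 codes for a mitochondrial carrier of the uncoupling protein family, found mainly in muscle and brown fat. Its 12 values (6.05 to 7.32) lay below the 95th percentile of the negative controls (7.21 to 8.41) of their own arrays, though its mean of 6.84 was above the limit of the filter on dim probe sets (6.71). It read 6.92, 6.87 and 7.17 in germ-free insulin arrays and 7.32, 7.02 and 6.98 in germ-free saline arrays, so these groups overlapped. Colonized insulin arrays read 6.21, 6.05 and 6.23, below every other array, and colonized saline arrays read 6.98, 7.07 and 7.26. The insulin difference was -0.12 ± 0.13 in germ-free mice and -0.94 ± 0.13 in colonized mice, and the effects differed by 0.82 ± 0.18.

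Slc25a20, Cpt1a and Cpt2 make up the carnitine shuttle that moves long-chain fatty acids into mitochondria: Cpt1a loads carnitine onto the fatty acid, Slc25a20 carries it across the inner membrane and Cpt2 removes the carnitine. The carrier Slc25a20 was 9.56, 9.59 and 9.76 in germ-free insulin arrays and 9.15, 9.27 and 8.94 in germ-free saline arrays, with insulin higher. In colonized mice it was 8.58, 8.71 and 8.73 after insulin and 9.25, 9.18 and 9.23 after saline, with insulin lower. The insulin difference was 0.51 ± 0.11 in germ-free mice and -0.55 ± 0.11 in colonized mice, so the effects differed by 1.06 ± 0.15.

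Cpt2 had the same ordering of groups. It was 8.73, 8.63 and 8.66 in germ-free insulin arrays and 8.34, 8.30 and 8.28 in germ-free saline arrays. It was 8.20, 8.39 and 7.96 in colonized insulin arrays and 8.44, 8.78 and 8.65 in colonized saline arrays. Neither pair of groups overlapped. Cpt2 differed by 0.37 ± 0.12 with insulin in germ-free mice (adjusted p = 0.368) and by -0.44 ± 0.12 in colonized mice (adjusted p = 0.226), and the difference of these effects was 0.80 ± 0.17 (adjusted p = 0.135). Cpt1a, the step before, averaged 10.53 ± 0.08 (SD, n = 3) in germ-free insulin arrays, 10.68 ± 0.08 in germ-free saline arrays, 11.06 ± 0.08 in colonized insulin arrays and 10.77 ± 0.55 in colonized saline arrays. Its spread in the last group came from animal 2, at 10.14 against 11.10 and 11.07. Its insulin effects of -0.15 ± 0.20 in germ-free mice and 0.29 ± 0.20 in colonized mice were not called (adjusted p = 0.954 and 0.577).

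Acadvl and Acadm carry out the first step of beta-oxidation, on very long and on medium-chain fatty acids. Acadvl was 10.07, 10.29 and 10.27 in germ-free insulin arrays and 9.80, 9.68 and 9.85 in germ-free saline arrays. It was 9.63, 9.81 and 9.82 in colonized insulin arrays and 9.92, 9.97 and 10.06 in colonized saline arrays. Insulin arrays were again above saline arrays in germ-free mice and below them in colonized mice, without overlap. Acadvl differed by 0.43 ± 0.10 with insulin in germ-free mice (adjusted p = 0.144) and by -0.23 ± 0.10 in colonized mice (adjusted p = 0.421), and the effects differed by 0.66 ± 0.15 (adjusted p = 0.157). Acadm averaged 10.33 ± 0.08 in germ-free insulin arrays, 10.17 ± 0.06 in germ-free saline arrays, 9.94 ± 0.14 in colonized insulin arrays and 10.21 ± 0.24 in colonized saline arrays (SD, n = 3 each). Its insulin effects were 0.16 ± 0.13 in germ-free mice and -0.27 ± 0.13 in colonized mice (adjusted p = 0.844 and 0.426).

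Plin2 coats lipid droplets in many cell types, and the steroid-making adrenal cortex is rich in such droplets. It varied least of the 9 between groups, with means of 10.50 ± 0.08 in germ-free insulin arrays, 10.35 ± 0.05 in germ-free saline arrays, 10.39 ± 0.17 in colonized insulin arrays and 10.44 ± 0.24 in colonized saline arrays (SD, n = 3 each). Its insulin effects were 0.15 ± 0.13 in germ-free mice and -0.05 ± 0.13 in colonized mice (adjusted p = 0.883 and 0.904).

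**Figure D1:**
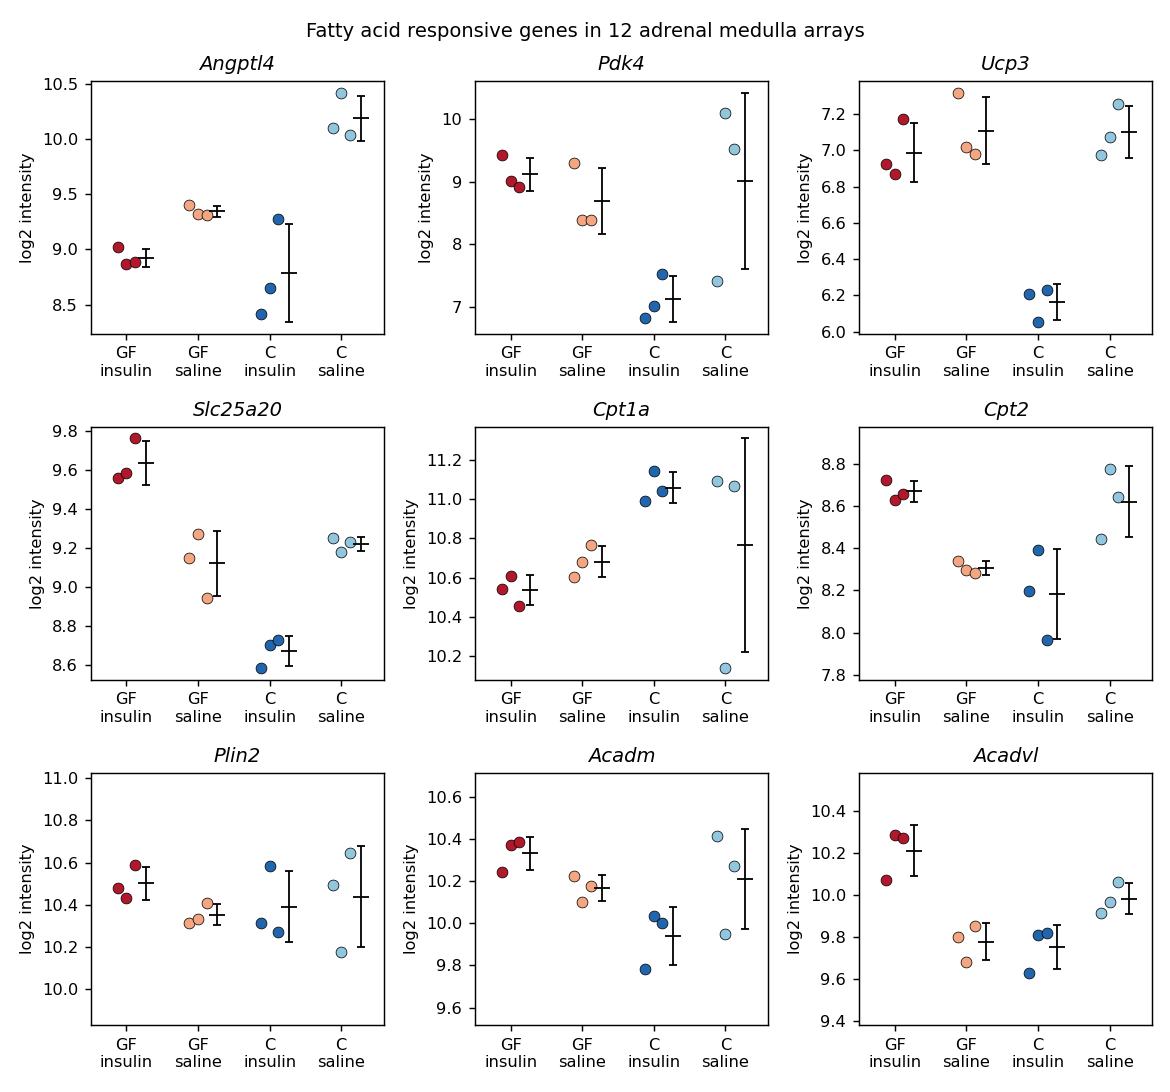
Log2 intensity of the 9 genes (y axis, each panel on its own scale) in every array, by group (GF, germ-free; C, colonized); points are animals and the bar beside them is the mean ± SD of 3. Angptl4 is highest in colonized saline arrays (10.04 to 10.43), Ucp3 is lowest in colonized insulin arrays (6.05 to 6.23), and Pdk4 spreads from 7.42 to 10.10 within colonized saline arrays.

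Insulin against saline was compared first. In germ-free mice 0 of the 6 members that were open to a test passed an adjusted p of 0.05 (2 of the 6 at an unadjusted p under 0.05, against 8.31% of all probe sets), where limma called 0.439%. In colonized mice 0 of the 6 passed (3 at an unadjusted p under 0.05, against 11.8%), where it called 0.153%. The difference of the effects called 0 of the 6 (4 at an unadjusted p under 0.05, against 9.97%), where 0.0358% of probe sets were called. The medians of the 6 were 0.26 in germ-free mice and -0.25 in colonized mice, where the median of all genes was 0.0063 and 0.0047.

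Over all 9 members, 6 differences lay above 0 in germ-free mice and 8 lay below 0 in colonized mice. Insulin arrays lay wholly above saline arrays for 5 members in germ-free mice (Slc25a20, Cpt2, Acadvl, Acadm and Plin2), as for 9.55% of probe sets, and wholly below them for Angptl4, as for 10.1%. In colonized mice insulin arrays lay wholly below saline arrays for 5 members (Angptl4, Ucp3, Slc25a20, Cpt2 and Acadvl), as for 6.55% of probe sets. Because 3 of these members were chosen for such effects, the counts over 9 are descriptions.

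**Figure D2:**
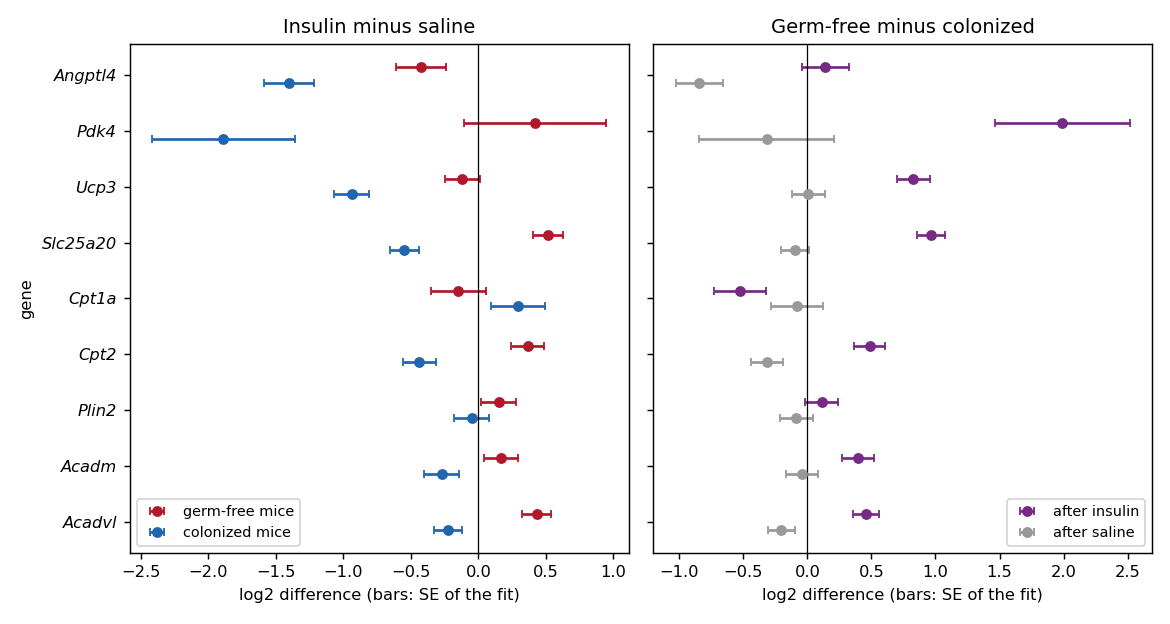
Log2 differences of the 9 genes (x axis) with their SE; the left panel gives insulin minus saline in germ-free and in colonized mice, the right panel germ-free minus colonized after insulin and after saline. Slc25a20, Cpt2 and Acadvl lie on opposite sides of 0 in the states on the left, and Pdk4 has the widest error (0.53).

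Germ-free and colonized mice were then compared within each treatment. These contrasts use the same arrays as the insulin contrasts, so they restate the same group means from another side. After insulin, 3 of the 6 tested members were higher in germ-free mice, where 2.62% of probe sets were called higher (7.77% in either direction). Pdk4 was 3.97-fold higher (1.99 ± 0.53, adjusted p = 0.0398), Cpt2 was 1.40-fold higher (0.49 ± 0.12, adjusted p = 0.0329) and Acadvl was 1.37-fold higher (0.46 ± 0.10, adjusted p = 0.0210). The Pdk4 values of colonized insulin animals 4 and 5 lay near background, below the 95th percentile of the negative controls. Acadm differed by 0.39 ± 0.13 (adjusted p = 0.0789), Cpt1a by -0.53 ± 0.20 (adjusted p = 0.144) and Plin2 by 0.11 ± 0.13 (adjusted p = 0.687). Among the chosen genes the difference was 0.96 ± 0.11 for Slc25a20 and 0.83 ± 0.13 for Ucp3, both with no overlap. Germ-free insulin arrays lay wholly above colonized insulin arrays for 6 members, as for 12% of probe sets, and wholly below them for Cpt1a, as for 19.8%.

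Markers of the medulla and of fat both moved with this comparison. Of the 13 chromaffin markers, 10 were called lower in germ-free insulin arrays than in colonized insulin arrays, with a median difference of -1.06, and the part of this in the results was not tested. Of the 11 adipocyte markers, 7 were called higher in germ-free insulin arrays than in colonized insulin arrays, with a median difference of 3.64. In separate lists that share some of these genes, 7 of 7 brown adipocyte markers were called higher (median 3.15). Of 5 measured white ones (of 6 listed) 1 was called higher and 1 lower, with 4 above 0 (median 3.64). Adipoq ranged from 11.18 to 11.78 in germ-free insulin arrays and from 4.03 to 10.18 in colonized insulin arrays. Ucp1 ranged from 11.52 to 11.59 in germ-free insulin arrays and from 4.08 to 5.74 in colonized insulin arrays. With the adipocyte level as a covariate Pdk4 differed by 0.073 (adjusted p = 0.954), Cpt2 by 0.41 (adjusted p = 0.372) and Acadvl by 0.35 (adjusted p = 0.367), so that 0 of the 6 members were called. Over all 19572 probe sets this covariate left 30 calls, against 1521 without it. Germ-free insulin arrays (10.18 to 10.61) and colonized insulin arrays (5.92 to 8.45) did not overlap in adipocyte level. The fit therefore extrapolates between these groups, and its loss of calls cannot tell adipocyte level and group apart. Without the 3 arrays of low adipocyte level, which leaves 1 colonized insulin array, assumed to vary like the other groups, 0 of the 6 were called (Pdk4 1.58 with adjusted p = 0.132, Cpt2 0.71 with 0.0979, Acadvl 0.39 with 0.315), and 16 probe sets in all. The count of 3 became 5 without colonized saline animal 2, where Cpt1a (-0.53, adjusted p = 0.00331) and Acadm (0.39, adjusted p = 0.0216) were called too. It became 0 without colonized insulin animal 4, germ-free insulin animal 11 or germ-free insulin animal 12, and 1 without colonized insulin animal 5 or 6, germ-free saline animal 8 or germ-free insulin animal 10. Pdk4 was also not called with the trend and robust options (adjusted p = 0.0911).

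After saline, 0 of the 6 tested members were called (1 at an unadjusted p under 0.05, against 24% of probe sets), where limma called 6.9% of probe sets. Cpt2 differed by -0.32 ± 0.12 (adjusted p = 0.141), Acadvl by -0.20 ± 0.10 (adjusted p = 0.259) and Pdk4 by -0.32 ± 0.53 (adjusted p = 0.761). Germ-free saline arrays lay wholly below colonized saline arrays for Angptl4, Cpt2 and Acadvl, as for 16.4% of probe sets. Ucp3 was nearly equal in the states after saline (0.0051 ± 0.13), with a sign that turned under a second quantile normalization (-0.043).

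The mean of the germ-free differences over both treatments is orthogonal to the insulin contrasts that chose the genes, and all 9 members were tested there. All contrasts share the same estimate of a gene's spread, so the p-values of the 3 chosen genes are not wholly free of that choice. In germ-free mice 2 of the 9 were higher, where 6.14% of probe sets were called higher (17.6% in either direction). Slc25a20 averaged 0.43 ± 0.08 higher (adjusted p = 0.00322) and Ucp3 0.42 ± 0.09 higher (adjusted p = 0.00910). Slc25a20 differed by -0.10 ± 0.11 after saline and by 0.96 ± 0.11 after insulin, and Ucp3 by 0.0051 ± 0.13 and 0.83 ± 0.13. Both means therefore rest on the difference after insulin. The mean Ucp3 difference is smaller than that between the negative controls, which averaged 5.56 in germ-free arrays and 4.96 in colonized arrays. The values of Ucp3 lay below the 95th percentile of these controls. Of the chromaffin markers, 10 of 13 were called lower in the same contrast (median -0.59). Angptl4 differed by -0.35 ± 0.13 (adjusted p = 0.0840), Pdk4 by 0.83 ± 0.37 (adjusted p = 0.148) and Cpt1a by -0.31 ± 0.14 (adjusted p = 0.170). The other 4 members differed by 0.01 to 0.17, with adjusted p from 0.204 to 0.948. With a covariate, array weights or arrays left out, this contrast is no longer orthogonal to the insulin contrasts. The 3 chosen genes are then given as values without a test. With the adipocyte covariate Slc25a20 differed by 0.41, Ucp3 by 0.32 and Angptl4 by -0.62. Pdk4 turned to -0.27 (adjusted p = 0.515) and Cpt1a was -0.034 (adjusted p = 0.923) with that covariate. With the cortex covariate Ucp3 differed by 0.36 and Cpt1a was called lower (-0.78, adjusted p = 0.00184). Without the 3 arrays of low adipocyte level Slc25a20 differed by 0.41, Ucp3 by 0.35 and Angptl4 by -0.62. Without colonized saline animal 2, Pdk4 (1.11, adjusted p = 0.0271) and Cpt1a (-0.46, adjusted p = 0.000762) were called. Of the probe sets called in this contrast 34.8% were higher in germ-free mice, and this share was 57.1% after centring each array on its median, 21.7% after a second quantile normalization and 49.2% after quantile normalization of gene rows alone. The shares after insulin were 33.7% in the main fit and 51.2%, 24.2% and 44.9% in the same settings, and after saline 40.9% and 64.2%, 27.5% and 58.4%. The second quantile normalization put the median of all genes at -0.11 in each germ-free contrast, against -0.03 to -0.04 in the main fit, and Slc25a20 and Ucp3 were called higher for the mean under all of these scalings.

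The levels of the members were set against the adipocyte level of each array. Pdk4 rose with it over all 12 arrays, the planned setting (Pearson r = 0.896, adjusted permutation p = 0.00072, Spearman rho = 0.818, adjusted 0.00814). Cpt1a (r = -0.794, adjusted 0.00711) and Acadvl (r = 0.646, adjusted 0.0443) passed there too. Over 10 arrays, without the 2 farthest from the median level, Pdk4 passed by r (adjusted 0.00765) but not by rho (0.0697), and Acadvl did not pass. The 3 arrays at 5.92 to 6.51 formed a cluster of their own. After this was seen, the relation was also tested over the other 9 arrays, at 8.45 to 10.61. Cpt2 rose with the adipocyte level (Pearson r = 0.866, exact permutation p = 0.00361, adjusted 0.0163; Spearman rho = 0.850, exact p = 0.00607, adjusted 0.0372), and Cpt1a fell with it (r = -0.790, exact permutation p = 0.00924, adjusted 0.0277; rho = -0.833, exact p = 0.00827, adjusted 0.0372). Without the 2 of these arrays farthest from their median, r was 0.800 for Cpt2 and -0.699 for Cpt1a over 7 arrays, with an adjusted exact permutation p of 0.243 for both. No member passed over those 7 arrays. In every setting the arrays came from 4 groups and were permuted without regard to group, so differences between groups enter these p-values, which were adjusted over the 9 members. With group means removed over the 12 arrays, r was 0.19 for Cpt2 and -0.62 for Cpt1a. Over the 9 arrays r was 0.713 for Pdk4 (exact permutation p = 0.0295, adjusted 0.0563). As a description, r over the 9 arrays was 0.854 for Slc25a20 and -0.083 for Angptl4.

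After the group means were removed, r with the adipocyte level over the 12 arrays was 0.90 for Pdk4, 0.68 for Angptl4, 0.43 for Ucp3, 0.40 for Acadvl, 0.19 for Cpt2, 0.14 for Slc25a20, -0.42 for Plin2 and Acadm and -0.62 for Cpt1a. With the adipocyte covariate the insulin difference in colonized mice was -1.18 for Angptl4, -0.85 for Ucp3 and -0.53 for Slc25a20, against -1.41, -0.94 and -0.55 without it, and it was -0.92 for Pdk4, against -1.89 without it. The difference of the insulin effects was 1.03 for Slc25a20, 0.74 for Cpt2, 0.57 for Acadvl and 0.69 for Pdk4 with the covariate, against 1.06, 0.80, 0.66 and 2.31 without it. The part of hepatocyte and intestinal RNA in these results was not tested.

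**Figure D3:**
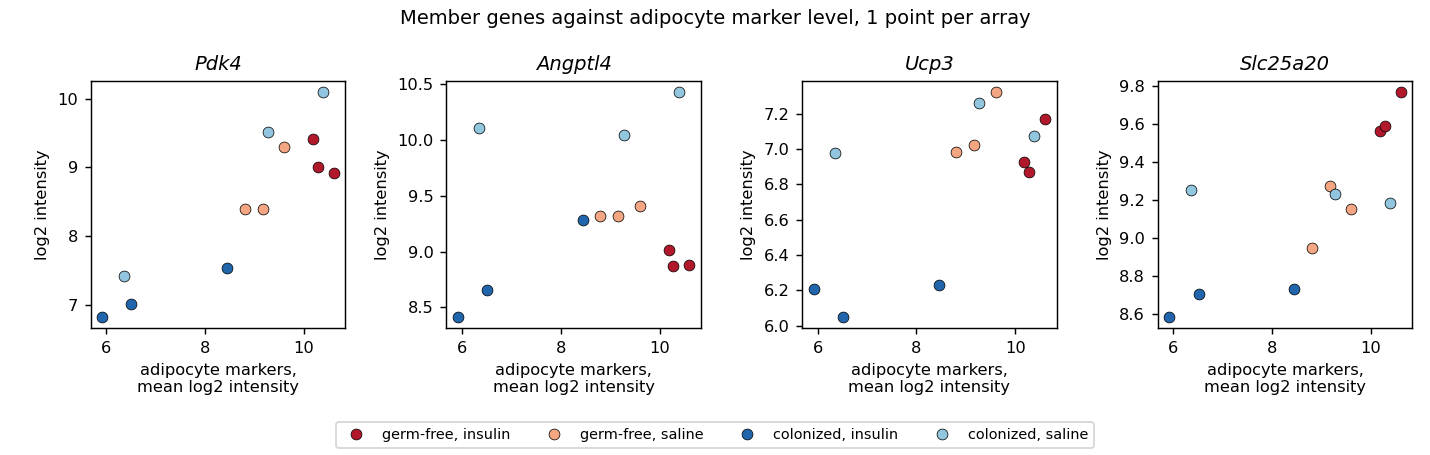
Log2 intensity of Pdk4, Angptl4, Ucp3 and Slc25a20 (y axes) against the mean log2 intensity of 11 adipocyte markers (x axis), 1 point per array, coloured by group. The 3 arrays at marker levels of 5.92 to 6.51 also have the 3 lowest values of Pdk4 (6.82 to 7.42), and r with group means removed is 0.90 for Pdk4 and 0.14 for Slc25a20.

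The genes whose pattern over the 12 arrays was most like that of a member were found by Pearson r, as a description. For Angptl4 they were Txnip (0.978), Ypel2 (0.938), Pik3ip1 (0.924), Zfyve1 (0.922) and Arrdc4 (0.915). Txnip, a thioredoxin-binding arrestin whose transcript is known to follow glucose, was 11.27, 11.21 and 11.01 in germ-free insulin arrays, 11.54, 11.36 and 11.45 in germ-free saline arrays, 10.95, 10.79 and 11.48 in colonized insulin arrays and 12.13, 12.40 and 12.21 in colonized saline arrays. As with Angptl4, colonized saline arrays were highest and colonized insulin animal 6 stood above the other 2 of its group. For Pdk4 the most similar were Ppara (0.966), Pck1 (0.957), Slc27a2 (0.942), Cidea (0.930) and Trarg1 (0.928). Ppara, which codes for PPAR-alpha itself, was 7.25, 7.33 and 7.18 in germ-free insulin arrays, 7.30, 6.92 and 6.72 in germ-free saline arrays, 6.26, 6.26 and 6.63 in colonized insulin arrays and 6.62, 7.94 and 7.31 in colonized saline arrays. Cidea, a lipid droplet gene of fat, is 1 of the adipocyte markers. Slc25a20 was most like Gnpat (0.960), Pdhb (0.956), Sdhd (0.952), Letmd1 (0.934) and Idh3a (0.929), of which Pdhb, Sdhd and Idh3a code for mitochondrial fuel enzymes. Ucp3 was most like Chkb (0.916), Ddb2 (0.913), Kmt5c (0.894), Kansl1l (0.892) and Ppid (0.888). For Slc25a20 and Ucp3, 1 gene each with an uninformative symbol was passed over.

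The 9 genes were placed beside 107 measured genes (of 119 listed) in 6 lists of the same pathways. In germ-free mice 82 of the 107 differences with insulin lay above 0 (median 0.22, against 0.0063 over all genes), and in colonized mice 75 lay below 0 (median -0.19, against 0.0047). The 7 brown adipocyte markers also lay above 0 in germ-free mice (median 1.63) and below 0 in colonized mice (median -1.32), and the part of fat content was not tested. Limma called 0 of the 107 in either state, with 26 in germ-free mice and 31 in colonized mice at an unadjusted p under 0.05 (24.3% and 29.0%, against 8.31% and 11.8% of all probe sets). The difference of the effects called 0 of 107 (44 at an unadjusted p under 0.05, 41.1% against 9.97%). Germ-free minus colonized called 24 higher and 3 lower after insulin, 25.2% against 7.77% of all probe sets, and 1 higher and 4 lower after saline, 4.67% against 6.9%.

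Among the receptors and cofactors, 4 of 16 measured genes were called higher in germ-free mice after insulin and 0 lower. Ppargc1a, the PPAR coactivator PGC-1alpha, was highest above colonized (3.43 ± 0.58, adjusted p = 0.00606), followed by Pparg, the fat cell receptor (2.73 ± 0.71, adjusted p = 0.0374), Lpin1 (0.92 ± 0.20, adjusted p = 0.0191) and the deacetylase Sirt1 (0.88 ± 0.14, adjusted p = 0.00476). Ppara differed by -0.91 ± 0.26 with insulin in colonized mice (adjusted p = 0.238). Nrip1, a corepressor, differed by 0.91 ± 0.18 with insulin in germ-free mice (adjusted p = 0.0597).

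Of 24 measured fatty acid oxidation enzymes, 9 were called higher and 1 lower in germ-free mice after insulin. Cpt1b, the muscle and fat form of the enzyme, differed by 2.59 ± 0.48 (adjusted p = 0.00911), where its sister Cpt1a did not pass. Crat, which handles short acyl groups, rose by 1.17 ± 0.25 (adjusted p = 0.0163), and Acadl, the long-chain dehydrogenase between Acadvl and Acadm in chain length, by 0.73 ± 0.14 (adjusted p = 0.00921). Decr1, which handles unsaturated fatty acids, rose by 0.76 ± 0.14 (adjusted p = 0.0100). With insulin, 20 of the 24 differences lay above 0 in germ-free mice and 20 below 0 in colonized mice. Acadl differed by 0.43 ± 0.14 in germ-free mice (adjusted p = 0.315) and by -0.61 ± 0.14 in colonized mice (adjusted p = 0.128), and the difference of the effects was 1.04 ± 0.19 (adjusted p = 0.0838). Cpt1c, the brain form, was lower in germ-free mice after saline (-0.47 ± 0.12, adjusted p = 0.0374).

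Of 12 measured genes of pyruvate dehydrogenase, its kinases and uncoupling proteins, 3 were called higher in germ-free mice after insulin, and all 3 code for subunits of the complex that Pdk4 switches off. Pdhb differed by 0.93 ± 0.10 (adjusted p = 0.00159), Dlat by 0.85 ± 0.14 (adjusted p = 0.00585) and Pdha1 by 0.70 ± 0.16 (adjusted p = 0.0191). Pdhb differed by 0.46 ± 0.10 with insulin in germ-free mice (adjusted p = 0.120) and by -0.42 ± 0.10 in colonized mice (adjusted p = 0.173).

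Lipid droplet and lipolysis genes had 5 of 16 called higher in germ-free mice after insulin. These included Dgat2, which makes triglyceride (2.86 ± 0.61, adjusted p = 0.0163), and the lipases Lipe (1.18 ± 0.23, adjusted p = 0.0119) and Pnpla2 (1.06 ± 0.22, adjusted p = 0.0155). Pnpla3 rose by 1.80 ± 0.48 (adjusted p = 0.0392). All 16 differences with insulin lay above 0 in germ-free mice (median 0.28), with none called. Among 20 measured uptake and activation genes, 2 were called higher after insulin, namely Fabp3, a fatty acid binding protein of muscle and brown fat (2.38 ± 0.54, adjusted p = 0.0207), and the fatty acid translocase Cd36 (1.48 ± 0.39, adjusted p = 0.0374). Acsl6 (-0.79 ± 0.19, adjusted p = 0.0264) and the transporter Slc27a4 (-0.54 ± 0.11, adjusted p = 0.0116) were called lower. Of 19 measured peroxisomal and microsomal targets, Ehhadh alone was called (1.49 ± 0.36, adjusted p = 0.0290). The adipocyte markers that were higher in the same comparison stand beside all of these list counts. Genes called in any of the 6 contrasts numbered 5, 11, 3, 5, 7 and 4 for receptors, oxidation enzymes, peroxisomal targets, uptake genes, lipid droplet genes and dehydrogenase genes. The share of all probe sets called in any of the 6 contrasts was not computed, so these counts have no background beside them. Without the 3 arrays of low adipocyte level only 1 colonized insulin array is left, so counts are not given for that setting. Several genes of the lists, such as Pparg, Dgat2, Lipe and Cd36, are known to be abundant in fat. In colonized insulin arrays the 95th percentile of the negative controls was 7.31 to 7.48. Below it lay the means of Ppargc1a (5.47), Pparg (7.08), Ppara (6.38), Cpt1b (6.47), Fabp3 (6.93), Pnpla3 (5.23) and Ehhadh (6.04) in these arrays. Pnpla3 (7.04) and Ehhadh (7.52) also averaged below that percentile in germ-free insulin arrays (8.25 to 8.41).

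**Figure D4:**
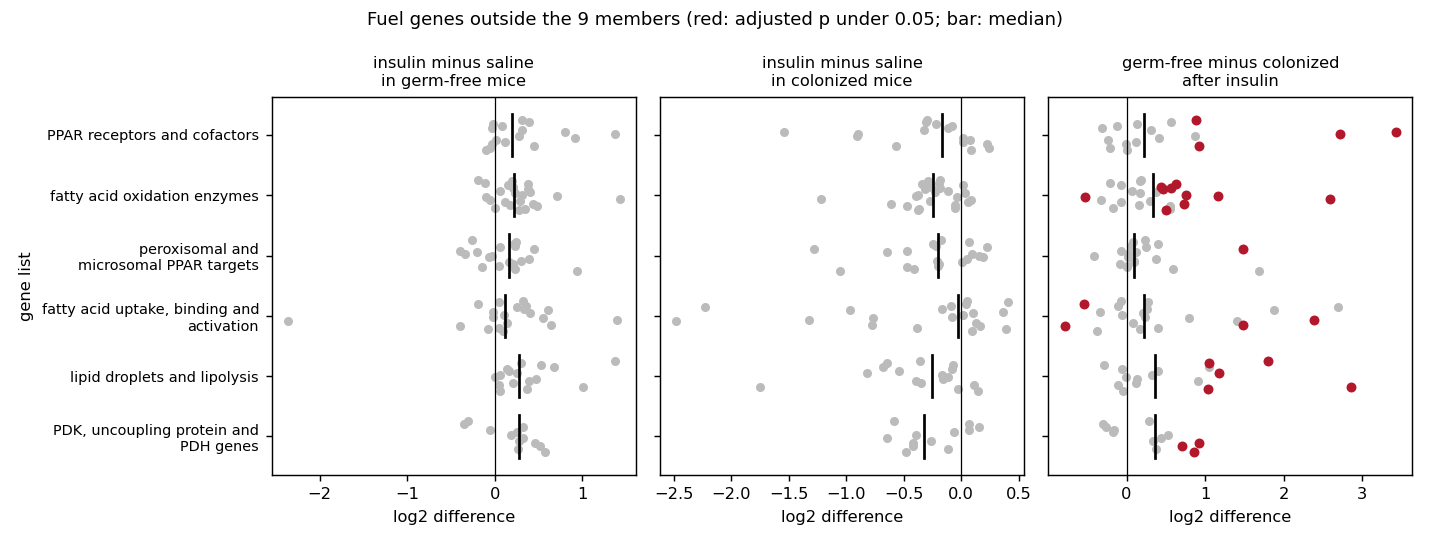
Log2 differences (x axes, each panel on its own scale) of the 107 genes of the 6 lists: insulin minus saline in germ-free mice, the same in colonized mice, and germ-free minus colonized after insulin. Each point is a gene, red where the adjusted p is under 0.05, and the bar is the median of the list; no gene is red in the insulin panels and 27 are red in the germ-free panel.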

How the data were processed

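Adrenal medulla RNA of 12 mice was measured on Affymetrix arrays. The deposited log2 values were made by the authors with RMA, and limma is named too, per the submitters' processing notes; versions, the annotation build and joint normalization of all arrays are not given in the sources used here. The table spans 2.46 to 13.9. Of 28846 rows, 19572 had a gene symbol, and 1 probe set per gene (highest mean) was used. Limma 3.58.1 in R 4.3.3 fitted 1 mean per group (8 residual and 4.08 prior degrees of freedom), with Benjamini-Hochberg adjustment over the 19572 probe sets, no filter and calls at an adjusted p under 0.05. Correlations used two-sided permutation tests, exact over 7 or 9 arrays and with 100000 resamples over 10 or 12 arrays (NumPy 2.4.6, ranks from SciPy 1.17.1). Members, lists and alternatives were chosen with earlier results of these data known. Named list genes were the up to 4 called ones of largest change, or else the 2 of smallest p; values of some further listed or alike genes were chosen after they were seen. The 3 low adipocyte arrays, and quantile normalization of gene rows alone, were alternatives added after the data were seen. The labels do not say whether animals shared a cage, so p-values measure the spread between these samples. The pipeline was tested on simulated data.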

Additional observations from a re-analysis of the deposited data

Results flagged for a closer look

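In 3 members insulin and saline arrays did not overlap in either colonization state, and every insulin array lay above saline in germ-free mice and below it in colonized mice. Slc25a20, the carnitine carrier, had a difference of the effects of 1.06 ± 0.15 (0.51 in germ-free and -0.55 in colonized mice), and was chosen for its insulin effects, so this value was not tested. Cpt2 had a difference of 0.80 ± 0.17 (0.37 in germ-free and -0.44 in colonized mice), with an adjusted p of 0.135 in limma. Acadvl had a difference of 0.66 ± 0.15 (0.43 in germ-free and -0.23 in colonized mice), with an adjusted p of 0.157. The tests of the difference in Cpt2 and Acadvl did not pass 0.05. Fat markers had the same opposite signs. With insulin, 11 of 11 adipocyte markers lay above 0 in germ-free mice (median 0.80) and 10 below 0 in colonized mice (median -1.83). Chromaffin markers lay below 0 for 13 of 13 in germ-free mice (median -0.57) and above 0 for 9 in colonized mice (median 0.12). The part of fat and medulla content in these differences was not tested.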

How the results depend on the processing

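No paired analysis was possible because the groups share no replicate numbers. With 3 arrays a group, 576 values of single members under other settings gave 525 of the same direction and call, and the main exceptions follow; the cause was not tested. With array weights, members called numbered 1 for insulin in germ-free mice and 2 for the difference. With these weights 5 were called for germ-free minus colonized after insulin (3 in the main fit), and Pdk4 and Cpt1a for the mean. Members called numbered 1 after saline with the cortex covariate and 0 after insulin with the adipocyte covariate. Leaving out 1 array at a time gave 0 to 1 called members for insulin in colonized mice, 0 to 1 for the difference and after saline, and 0 to 5 after insulin. Without colonized saline animal 1, the array of low adipocyte level in its group, the difference for Pdk4 was called (3.10, adjusted p = 0.0157). Without colonized saline animal 2 Cpt1a was called after saline (-0.40, adjusted p = 0.0317). Without colonized insulin animal 4, Angptl4 differed by -0.44 for the mean, a value without a test.

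After insulin, Cpt1a was called with the cortex covariate (-0.69, adjusted p = 0.00227), with array weights and in a fit of the compared groups alone (-0.53, adjusted p = 0.0143), and Acadm without dim probe sets (adjusted p = 0.0441), after a second quantile normalization (adjusted p = 0.0435) and with array weights.

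Signs turned in 19 of the 576 values. With the cortex covariate Cpt1a was -0.23 for insulin in colonized mice and 0.18 for the difference, Pdk4 0.76 and Ucp3 -0.092 after saline, and Plin2 -0.21 and Acadm -0.015 for the mean. With the adipocyte covariate Pdk4 was -0.24 and Cpt1a 0.013 for insulin in germ-free mice, Ucp3 -0.021 after saline, Angptl4 -0.32 after insulin and Pdk4 -0.27 for the mean. Without the 3 low adipocyte arrays Ucp3 was -0.058, Cpt1a 0.080 and Acadm 0.057 after saline, and Angptl4 -0.36 after insulin. Array weights gave -0.080 for Ucp3 after saline and -0.071 for Plin2 in the mean, a second quantile normalization -0.043 for Ucp3 after saline, and median centring 0.034 for Acadm after saline. Leaving out 1 array at a time spanned -0.17 to 0.057 for Acadm, -0.40 to 0.080 for Cpt1a, -1.12 to 0.22 for Pdk4, -0.22 to 0.017 for Plin2 and -0.10 to 0.083 for Ucp3 after saline, -0.044 to 0.39 for Angptl4 after insulin, -0.022 to 0.46 for Cpt1a and -0.18 to 0.054 for Plin2 with insulin in colonized mice, and -0.054 to 0.064 for Plin2 in the mean.

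Genes called in any contrast numbered 5 of the receptors and cofactors, 11 of the oxidation enzymes, 3 of the peroxisomal targets, 5 of the uptake genes, 7 of the lipid droplet genes and 4 of the dehydrogenase and uncoupling genes. The same share over all probe sets was not computed for any setting, so the counts describe the lists without a background. In the same order the counts were 8, 11, 10, 14, 13 and 7 with array weights. With the adipocyte covariate they were 2, 2, 1, 3 and 2 for the first 5 lists. The peroxisomal targets numbered 6 without dim probe sets, 7 after a second quantile normalization, 5 after median centring, with trend and robust options or after quantile normalization of gene rows, and 7 with the cortex covariate, which gave 12 for the uptake genes. Leaving out 1 array at a time gave 2 to 9, 5 to 13, 0 to 7, 2 to 12, 1 to 11 and 3 to 5 in the order above. The relation to the adipocyte level was counted for members outside the 3 chosen genes, by the adjusted permutation p of Pearson's r. Over all 12 arrays Pdk4, Cpt1a and Acadvl passed. Cpt1a and Cpt2 passed without the 3 low arrays, and none passed over 7 arrays. With brown adipocyte markers alone Pdk4, Cpt1a, Cpt2 and Acadvl passed, and with white ones alone Pdk4 and Cpt1a.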
